A study of Mus musculus with 12 samples.

Results

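Levels of 10 mouse genes of cartilage matrix and chondrocytes were described in 12 bulk RNA-seq libraries of lung fibroblasts. The genes are Chad, Acan, Comp, Matn1, Matn3, Cytl1, Cnmd, Ucma, Otor and Sox9, found by symbol among the 20606 genes of a deposited FPKM table (fragments per kilobase of transcript, scaled to the library's mapped fragments, a level per transcript length). They were chosen by their FPKM in these libraries, from the contrasts between the 4 groups, so their values are given as a description, with no test. The series is about lung metastasis of breast cancer, and the question put to these libraries is how expression in each fibroblast subgroup differs between lungs with and without metastasis.

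The groups, of 3 libraries each, are myofibroblasts from mice with lung metastasis (M-MyoF), myofibroblasts from normal mice (N-MyoF), matrix fibroblasts from mice with lung metastasis (M-MF) and matrix fibroblasts from normal mice (N-MF). All are labelled as lung fibroblasts, and libraries were made from polyadenylated RNA with the SMART-Seq chemistry and transposon-based construction. The sources used here name no mouse strain, age, tumour line, sorting gate or pooling of animals, so the spread between libraries of a group may be technical. No counts per library were at hand, so depth is unknown. The deposited FPKM of a library summed to between 528176 and 618478, and log2 levels of libraries of 1 group correlated across genes at 0.998 to 0.999.

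Cartilage matrix is a network of type II, IX and XI collagen filled with aggrecan, a large proteoglycan whose sulfated chains hold water. Matrilins, Comp and chondroadherin link these components to each other and to the chondrocyte surface, and the transcription factor Sox9, with Sox5 and Sox6, drives the genes of the matrix. In the mouse, airway cartilage lies around the trachea and main bronchi rather than around the airways within the lung. Several of these genes are also made outside cartilage, such as Comp in tendon and wounds and Sox9 in lung epithelium.

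The 300-base promoter windows that RefSeq gives for 8 of the 10 genes (GRCm38.p6, 250 bases before and 50 after the start) were read because these genes were high together in 1 group. Those of Chad and Cytl1 are shown because these were the most abundant of the 10 genes in N-MyoF. That of Otor is shown because it held TATAAA, as that of Chad did. Other forms of the TATA box were not searched. Capitals mark TATAAA, searched on both strands, and each window is written 5′ to 3′ on the gene's strand. The windows are chr11:94564797-94565096 on the plus strand for Chad, chr5:37735269-37735568 on the plus strand for Cytl1 and chr2:143078143-143078442 on the plus strand for Otor.
Chad: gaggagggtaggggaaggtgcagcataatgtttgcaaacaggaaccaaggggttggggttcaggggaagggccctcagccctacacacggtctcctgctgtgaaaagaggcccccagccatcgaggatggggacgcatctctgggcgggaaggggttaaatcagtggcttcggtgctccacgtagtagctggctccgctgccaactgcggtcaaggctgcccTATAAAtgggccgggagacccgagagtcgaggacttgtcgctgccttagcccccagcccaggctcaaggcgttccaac
Cytl1: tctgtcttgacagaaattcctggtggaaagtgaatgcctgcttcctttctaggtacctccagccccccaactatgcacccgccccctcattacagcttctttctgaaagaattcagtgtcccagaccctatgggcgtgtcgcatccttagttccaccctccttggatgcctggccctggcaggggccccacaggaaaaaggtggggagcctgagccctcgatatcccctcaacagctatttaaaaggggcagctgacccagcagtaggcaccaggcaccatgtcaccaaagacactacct
Otor: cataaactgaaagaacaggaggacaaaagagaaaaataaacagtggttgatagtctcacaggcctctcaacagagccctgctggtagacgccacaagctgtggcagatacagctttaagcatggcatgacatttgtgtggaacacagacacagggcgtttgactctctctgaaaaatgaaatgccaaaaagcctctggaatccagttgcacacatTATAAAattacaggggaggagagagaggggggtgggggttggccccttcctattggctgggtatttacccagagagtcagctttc
TATAAA began 28 bases upstream of the annotated start of Chad and 35 bases upstream of that of Otor, on the gene's own strand. It was in 2 of the 8 windows, against 13.62% of all 32851 windows in the table. AACAAT and ACAAAG, forms of the core sequence bound by Sox family factors, were on either strand in 0 of the 8 windows, against 10.72% and 18.71% of all windows. The windows differed in base composition, with 31 CpG dinucleotides in that of Acan and 1 in that of Cnmd, around a median of 7 over all windows.

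Chad, Cytl1 and most of the other genes were at their highest in normal myofibroblasts and at a small share of that level in myofibroblasts from metastatic lungs. Of the 10 genes, 9 had an M-MyoF mean under 0.5 times the N-MyoF mean, a ratio under which 5.95% of the 13300 genes tested fell. In matrix fibroblasts 9 of the 10 had an M-MF mean below the N-MF mean, and 7 were under 0.5 times that mean, against 5.82% of all genes tested. The median ratio was 0.265 over the 8 genes with a defined ratio in matrix fibroblasts, and 0.0575 over all 10 in myofibroblasts. Nothing is read from these counts, since the genes were chosen with the contrast known. Of the 10 genes, 8 reached 1 FPKM in at least 3 libraries and so entered the fit across genes. Otor and Acan did so through N-MyoF alone and Ucma through N-MyoF and 1 M-MyoF library, while Matn1 and Matn3 did not enter it.

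Among the structural genes, Chad encodes chondroadherin, a leucine-rich repeat protein that binds collagen and chondrocytes. Chad was at 15.09, 15.01 and 14.78 FPKM in M-MyoF, 210.4, 214.3 and 207.6 FPKM in N-MyoF, 1.52, 1.54 and 1.71 FPKM in M-MF, and 5.99, 6.28 and 5.85 FPKM in N-MF. The groups did not overlap and ran from high to low as N-MyoF, M-MyoF, N-MF and M-MF. The M-MyoF mean was 0.0710 times the N-MyoF mean, and same-numbered libraries gave 0.0717, 0.0700 and 0.0712. On the log2(FPKM + 1) scale the difference was -3.73 ± 0.034 in myofibroblasts and -1.44 ± 0.034 in matrix fibroblasts (SE from the limma fit), where the M-MF mean was 0.263 times the N-MF mean. In N-MyoF libraries Chad ranked between 373 and 382 among the 20606 genes by FPKM. Chad (chromosome 11, 94565047 to 94569127, GRCm38) lies inside Acsf2, a gene of the opposite strand that spans 94557102 to 94601871. The sources used here do not say whether counting used strand, so reads of the pair may not be told apart. Acsf2 itself averaged 2.97 ± 0.187, 3.11 ± 0.153, 3.80 ± 0.0808 and 2.98 ± 0.0819 FPKM in M-MyoF, N-MyoF, M-MF and N-MF (SD, n = 3 each), so it did not share the N-MyoF level of Chad.

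Acan encodes aggrecan, the main proteoglycan of cartilage, and was low in every library. It was at 0.21, 0.19 and 0.22 FPKM in M-MyoF, 3.97, 3.89 and 3.88 FPKM in N-MyoF, 0.01, 0.01 and 0 FPKM in M-MF, and 0.07, 0.06 and 0.09 FPKM in N-MF. The N-MyoF libraries stood apart, and the order of groups was that of Chad, again without overlap. The M-MyoF mean was 0.0528 times that of N-MyoF. The Acan values in both matrix fibroblast groups were so near 0 that their ratio of 0.0909 rests on the second decimal of the table.

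Comp encodes cartilage oligomeric matrix protein, a thrombospondin found in cartilage and tendon. It was at 1.19, 0.90 and 0.68 FPKM in M-MyoF, 9.90, 9.61 and 9.28 FPKM in N-MyoF, 3.26, 3.02 and 3.49 FPKM in M-MF, and 3.04, 2.34 and 2.70 FPKM in N-MF. N-MyoF was highest and M-MyoF lowest, while the ranges of M-MF and N-MF overlapped. The M to N ratio of means was 0.0962 in myofibroblasts and 1.21 in matrix fibroblasts, the one ratio of the set above 1. Comp was thus 3.56 times as high in N-MyoF as in N-MF, and 0.284 times as high in M-MyoF as in M-MF.

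The matrilins Matn1 and Matn3, adaptor proteins of cartilage filaments, were near the floor of the table. Matn1 was at 0, 0.03 and 0 FPKM in M-MyoF, 0.33, 0.70 and 0.65 FPKM in N-MyoF, 0 in every M-MF library, and 0.07, 0.05 and 0.09 FPKM in N-MF. Matn3 was at 0.08, 0.16 and 0.09 FPKM in M-MyoF, 1.33, 1.06 and 0.84 FPKM in N-MyoF, 0.02, 0.02 and 0 FPKM in M-MF, and 0.06, 0.03 and 0.06 FPKM in N-MF. Both were highest in N-MyoF without overlap, at levels below those of the other genes in that group. The Matn3 ratio was 0.102 in myofibroblasts and 0.267 in matrix fibroblasts, and the Matn1 ratio of 0.0179 in myofibroblasts rests on a single M-MyoF library above 0.

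**Figure D1:**
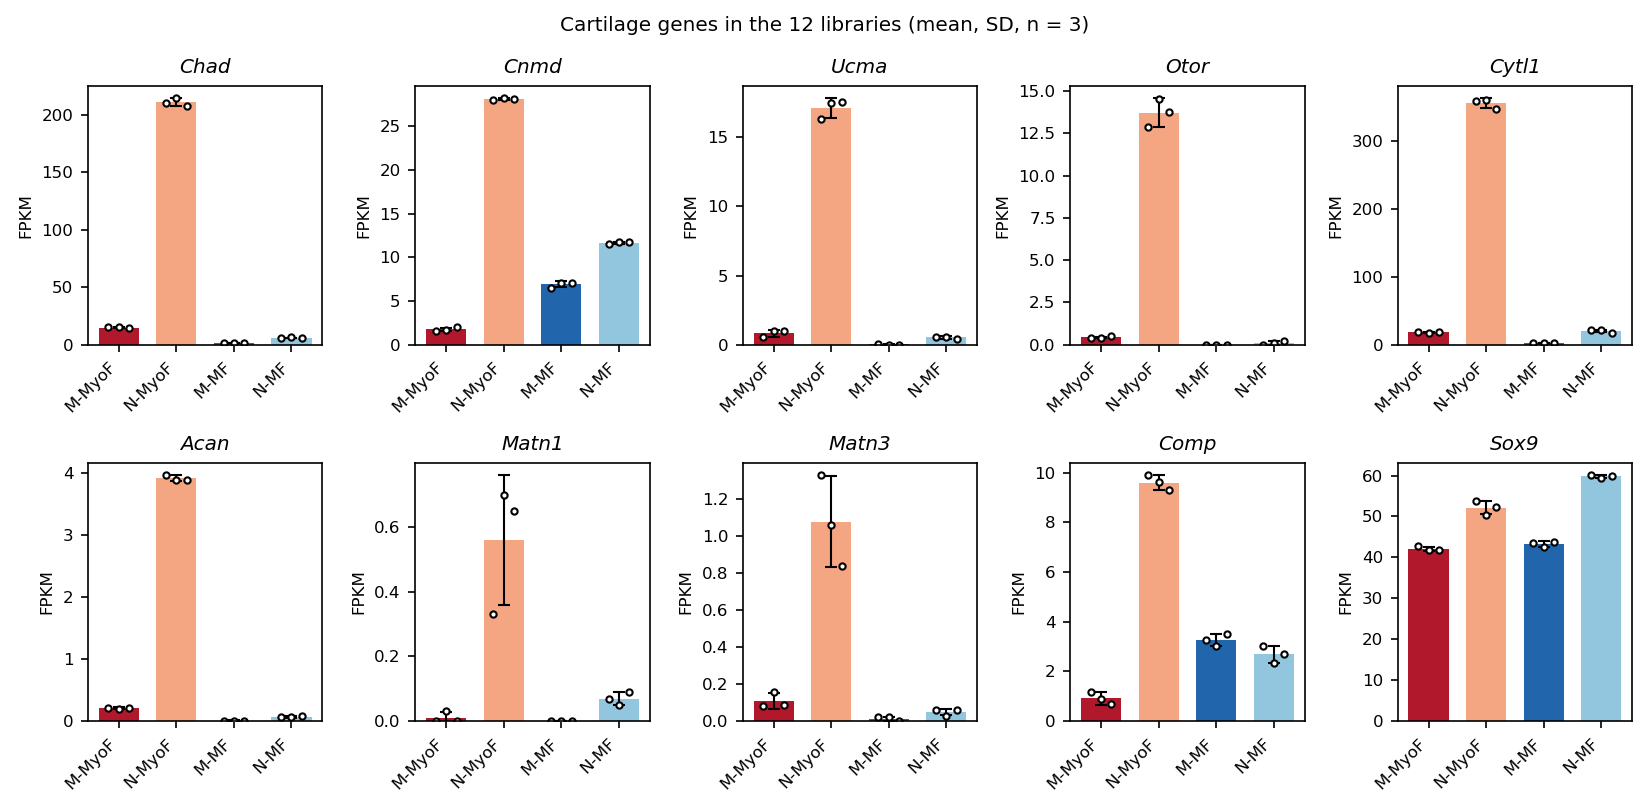
FPKM of each of the 10 genes by group, with a panel and a vertical axis for each gene. Points are libraries, and bars mark the mean and SD (n = 3). Chad and Cytl1 stand above 200 FPKM in N-MyoF alone, while Sox9 lies between 41.9 and 60.2 FPKM in all 12 libraries.

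Among the secreted factors, Cytl1 encodes cytokine-like 1, a small protein made by chondrocytes, and was the most abundant of the 10 genes in N-MyoF. It was at 18.19, 17.95 and 18.72 FPKM in M-MyoF, 359.1, 361.9 and 347.9 FPKM in N-MyoF, 2.71, 2.59 and 2.34 FPKM in M-MF, and 21.1, 21.8 and 17.9 FPKM in N-MF. M-MyoF and N-MF overlapped, with N-MyoF above both and M-MF below both. The M to N ratio of means was 0.0513 in myofibroblasts and 0.126 in matrix fibroblasts, with log2(FPKM + 1) differences of -4.21 ± 0.060 and -2.58 ± 0.060 (SE). Its rank by FPKM in N-MyoF libraries was between 209 and 215. Of the 13300 genes tested, 30 had a lower ratio of means in myofibroblasts and 57 in matrix fibroblasts.

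Cnmd encodes chondromodulin, a glycoprotein of avascular cartilage that inhibits blood vessel growth. Cnmd was at 1.56, 1.71 and 1.98 FPKM in M-MyoF, 28.1, 28.2 and 28.1 FPKM in N-MyoF, 6.52, 7.10 and 7.11 FPKM in M-MF, and 11.5, 11.7 and 11.7 FPKM in N-MF. The groups did not overlap, and here M-MyoF was the lowest. The M to N ratio was 0.0622 in myofibroblasts and 0.594 in matrix fibroblasts. As with Comp, the order of the subgroups differed between the lungs, since Cnmd was 0.253 times as high in M-MyoF as in M-MF and 2.42 times as high in N-MyoF as in N-MF.

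Ucma encodes a secreted protein of the upper growth plate, rich in modified glutamate. It was at 0.55, 0.96 and 1 FPKM in M-MyoF, 16.3, 17.5 and 17.6 FPKM in N-MyoF, 0.08, 0 and 0 FPKM in M-MF, and 0.58, 0.59 and 0.42 FPKM in N-MF. M-MyoF and N-MF overlapped far below N-MyoF, and the M-MyoF mean was 0.0489 times the N-MyoF mean. The ratio of 0.0503 in matrix fibroblasts rests on a single M-MF library above 0. Otor encodes otoraplin, a secreted protein of the Mia family known from the inner ear and cartilage. It was at 0.39, 0.40 and 0.49 FPKM in M-MyoF, 12.9, 14.5 and 13.8 FPKM in N-MyoF, 0 in every M-MF library, and 0, 0.10 and 0.21 FPKM in N-MF. Otor had the widest span between normal subgroups, 132.8 times as high in N-MyoF as in N-MF, although its N-MF libraries include a 0. Its M-MyoF mean was 0.0311 times the N-MyoF mean, and no ratio is given for matrix fibroblasts because M-MF is listed at 0.

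Sox9, the transcription factor that chondrocytes need, had another pattern. It was at 42.7, 41.9 and 41.9 FPKM in M-MyoF, 53.8, 50.5 and 52.3 FPKM in N-MyoF, 43.5, 42.4 and 43.8 FPKM in M-MF, and 60.2, 59.4 and 59.8 FPKM in N-MF. N-MF was highest, N-MyoF followed, and M-MyoF and M-MF overlapped. The M to N ratio was 0.808 in myofibroblasts and 0.723 in matrix fibroblasts, so M libraries were lower than N libraries in both subgroups without overlap. The spread between groups was thus narrow beside that of Chad, whose N-MyoF mean was 34.9 times its N-MF mean, against 0.873 times for Sox9.

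**Figure D2:**
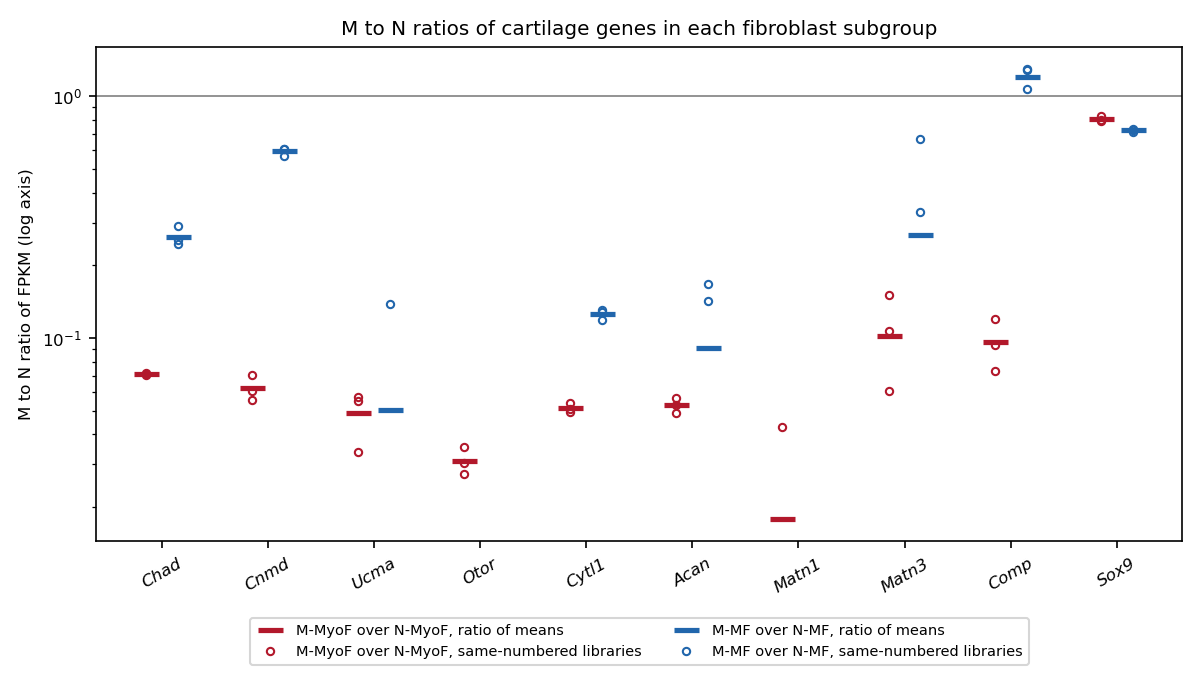
M to N ratio of FPKM for each gene on a log axis, with M-MyoF over N-MyoF in red and M-MF over N-MF in blue. Short bars are ratios of group means, and circles are ratios of same-numbered libraries, left out where a value is 0. In myofibroblasts the bars run from 0.0179 to 0.808, and in matrix fibroblasts from 0.0503 (Ucma, with a single M-MF library above 0) to 1.21, with no matrix fibroblast bar for Otor and Matn1, which are listed at 0 in M-MF.

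Between subgroups of normal lung, 9 of the 10 genes were over 2 times as high in N-MyoF as in N-MF, against 19.5% of all genes tested. In metastatic lung 7 genes had a higher mean in M-MyoF than in M-MF, and the ratio was over 2 for Chad (9.41), Cytl1 (7.18), Ucma (31.4), Acan (31.0) and Matn3 (8.25). The ratio of Ucma rests on a single M-MF library above 0, and those of Acan and Matn3 on M-MF values of at most 0.02 FPKM. A ratio over 2 was held by 15.4% of all genes tested in that comparison. Chad and Cytl1 were therefore higher in myofibroblasts than in matrix fibroblasts in both lungs, while Cnmd and Comp were so in normal lung alone. These contrasts share libraries with the M to N contrasts and are not separate evidence. In bulk RNA, fewer cells of a type and less RNA per cell cannot be told apart.

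Proportions among the genes also differed by group. Chad stood at 0.818 times Cytl1 in M-MyoF and 0.592 times in N-MyoF, and at 0.629 times in M-MF and 0.300 times in N-MF (mean over libraries, FPKM per FPKM). Cnmd was 0.117 times Chad in M-MyoF and 0.133 times in N-MyoF, but 4.35 times Chad in M-MF and 1.93 times in N-MF. Comp was 0.0616 times Chad in M-MyoF and 0.0455 times in N-MyoF, against 2.05 times in M-MF and 0.447 times in N-MF. Cnmd stood above Chad in both matrix fibroblast groups and Comp did so in M-MF, while both were a small share of Chad in the myofibroblast groups. Summed over the 9 genes other than Sox9, FPKM ran from 37.26 to 37.96 in M-MyoF, 629.5 to 651.7 in N-MyoF, 14.1 to 14.7 in M-MF and 39.0 to 43.0 in N-MF.

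Other cartilage genes, none of them among the 10, were counted in 4 lists of 46 genes, of which 41 were tested. The lists were chosen with earlier results of these data known, so their counts are not separate evidence. The test was limma on log2(FPKM + 1) over all 13300 genes with Benjamini-Hochberg adjustment, and a call needed an adjusted p under 0.05 and at least a 2-fold change. In M-MyoF against N-MyoF 16 of the 41 fell and 1 rose, where 3.24% of all genes fell and 11.4% rose. In M-MF against N-MF 4 fell and 2 rose, where 2.54% of all genes fell and 9.32% rose. Of the 41, 12 passed the filter through 1 of the myofibroblast groups alone, so their difference within myofibroblasts is tied to the filter. Among the other 29 the counts were 7 that fell and 1 that rose in myofibroblasts, and 4 and 2 in matrix fibroblasts. These 29 include Cilp2, which passed through N-MyoF and part of M-MyoF, so its fall in myofibroblasts is tied to the filter too. The 2-fold call in matrix fibroblasts depends on the pseudocount, since 15 of the 41 fell with a pseudocount of 0.1, and on the libraries, since 2 fell without M-MF library 2 or without N-MF library 3. The difference between the M to N effects of the subgroups passed at 2-fold for 16 genes that were more negative in myofibroblasts and 1 that was more positive, against 3.83% and 3.27% of all genes, and for 7 and 1 of the 29. At an adjusted p under 0.05 alone, 64.4% of all genes had a difference. Between normal subgroups 19 of the 41 were higher in N-MyoF than in N-MF and 7 were lower, against 11.9% and 4.88% of all genes, and among the 29 the counts were 10 and 7. Between metastatic subgroups 3 were higher in M-MyoF and 7 lower, against 8.82% and 4.74%, but 17 were higher with a pseudocount of 0.1. The lists' median log2 difference was -0.69 in myofibroblasts and -0.26 in matrix fibroblasts, against 0.11 and 0.08 over all genes. Scaling libraries to equal sums moved the median of all genes in myofibroblasts to -0.05, and quantile normalization moved it to -0.10.

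The 8 cartilage collagen chains were at their highest in N-MyoF, with sums of 12.8 to 13.3 FPKM in M-MyoF, 90.8 to 92.7 FPKM in N-MyoF, 1.61 to 2.07 FPKM in M-MF and 4.33 to 4.72 FPKM in N-MF. In myofibroblasts 7 of the 8 fell by 2-fold or more, against 3.24% of all genes. In matrix fibroblasts none did, against 2.54% of all genes, although 7 fell at an adjusted p under 0.05 alone, as 31.8% of all genes did. Col2a1, the chain of type II collagen that defines cartilage, averaged 5.93 ± 0.061, 41.9 ± 0.072, 0.0133 ± 0.015 and 0.773 ± 0.045 FPKM in M-MyoF, N-MyoF, M-MF and N-MF (SD, n = 3 each). Its log2 difference was -2.63 ± 0.035 in myofibroblasts (SE, limma adjusted p = 2.74e-15) and -0.81 ± 0.035 in matrix fibroblasts (limma adjusted p = 2.14e-10). The scale compresses the change of low genes, and as ratios of means Col2a1 was at 0.142 in myofibroblasts and 0.0172 in matrix fibroblasts, where M-MF was near 0. Col9a3, a chain of type IX collagen, fell by 2.56 on the log2 scale in myofibroblasts, and its means were 1.56, 14.1, 0.200 and 0.627 FPKM in the same order of groups. Of the chains, 5 passed the filter through N-MyoF alone (Col9a1, Col9a2, Col11a1, Col11a2 and Col10a1). Col27a1 fell by 0.73 in myofibroblasts, under the 2-fold line.

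Among 16 other matrix and secreted genes 8 fell by 2-fold or more in M-MyoF against N-MyoF, where 3.24% of all genes fell. Of these 8, 4 (Hapln1, Snorc, Clec3a and Susd5) passed the filter through N-MyoF alone. Fmod, a collagen-binding proteoglycan, fell by 2.16 ± 0.041 on the log2 scale (SE, limma adjusted p = 6.46e-14), with means of 4.86 FPKM in M-MyoF and 25.3 FPKM in N-MyoF. Mia, a secreted protein of chondrocytes and a relative of Otor, fell by 2.79 ± 0.117 (limma adjusted p = 1.42e-10), and Cilp and Cilp2, intermediate layer proteins, fell by 1.13 and 1.84. Cilp2 reached 1 FPKM throughout N-MyoF and only in part of M-MyoF (0.76 to 1.08 FPKM), so its fall is tied to the filter too. In matrix fibroblasts the calls differed in kind. Cilp and Mgp, an inhibitor of calcification, fell by 1.001 and 1.002, so close to the 2-fold line that both lay below it without M-MF library 2 or without N-MF library 3. Prg4, the lubricant of joint surfaces, rose there by 1.74 ± 0.046 (limma adjusted p = 1.5e-12) with means of 76.4 FPKM in M-MF and 22.1 FPKM in N-MF. Prg4 fell by 0.74 in myofibroblasts, where its means were 11.3 FPKM in M-MyoF and 19.6 FPKM in N-MyoF.

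Of 12 regulators of chondrocytes 8 were tested. In myofibroblasts 1 fell and 1 rose by 2-fold or more, where 3.24% of all genes fell and 11.4% rose. In matrix fibroblasts 2 fell and 1 rose, where 2.54% of all genes fell and 9.32% rose. Sox5 and Sox6, partners of Sox9, fell by 0.53 and 0.69 on the log2 scale in myofibroblasts. In matrix fibroblasts Sox6 rose by 0.62, and Sox5 rose by 0.16 in the deposited scale but did not pass the threshold under the 3 rescalings, where its difference was 0.010 to 0.069. Sox8, a close relative of Sox9, fell by 1.28 in myofibroblasts and by 1.23 in matrix fibroblasts. Fgfr3, a receptor that restrains chondrocyte growth, fell by 0.72 and 1.38 in the same comparisons. Runx2, which drives bone and late chondrocyte genes, rose by 1.86 in myofibroblasts and by 1.22 in matrix fibroblasts, with means of 4.98 FPKM in M-MyoF against 0.650 FPKM in N-MyoF and 2.04 FPKM in M-MF against 0.303 FPKM in N-MF. None of the 9 tested genes of chondroitin sulfate synthesis passed 2-fold in either subgroup, at the same adjusted p. At an adjusted p under 0.05 alone, 5 rose and 4 fell in myofibroblasts, where 49.1% of all genes rose and 31.6% fell. In matrix fibroblasts 3 rose and 4 fell, where 46.3% of all genes rose and 31.8% fell. Of those that fell in myofibroblasts, Chst3 and Chsy3 passed the filter through N-MyoF alone, so their fall there is tied to the filter. Among the other 7 tested, 5 rose and 2 fell in myofibroblasts, and 3 rose and 3 fell in matrix fibroblasts. Those called in myofibroblasts include Ugdh, which makes the sugar precursor (log2 0.78), Chpf, which extends the chain (0.51), and Csgalnact1, which starts it (-0.50).

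**Figure D3:**
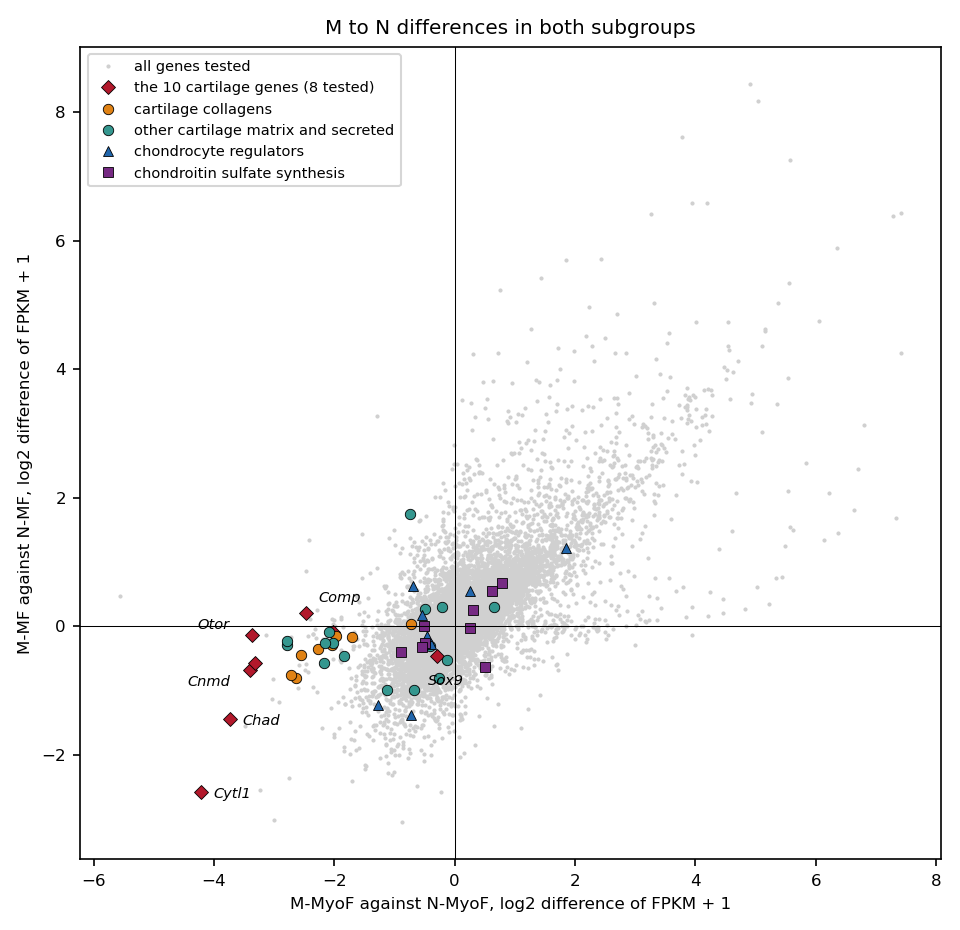
Log2 difference of FPKM + 1 in M-MyoF against N-MyoF (horizontal) and M-MF against N-MF (vertical) for the 13300 genes tested. Grey points are all genes, and coloured symbols are the 8 tested cartilage genes and the 4 other cartilage lists. Cytl1 lies at -4.21 and -2.58 and Chad at -3.73 and -1.44, while Comp lies at -2.47 and 0.21.

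Relatives of these genes by family did not share 1 pattern. Thbs1, a thrombospondin as Comp is, averaged 730.7 FPKM in M-MyoF, 2259 FPKM in N-MyoF, 124.3 FPKM in M-MF and 90.2 FPKM in N-MF, and fell by 1.63 in myofibroblasts and rose by 0.46 in matrix fibroblasts on the log2 scale (limma adjusted p = 1.32e-15 and 2.26e-10). Matn2, a matrilin of many tissues, fell by 1.47 and 0.89, and was higher in matrix fibroblasts than in myofibroblasts, at 8.03 FPKM in M-MyoF and 24.0 FPKM in N-MyoF against 76.2 FPKM in M-MF and 141.6 FPKM in N-MF. Vcan, a proteoglycan of soft tissue related to Acan, had means of 18.6 FPKM in M-MyoF, 15.4 FPKM in N-MyoF, 27.5 FPKM in M-MF and 25.2 FPKM in N-MF. Over the 16 relatives, 13 were tested, of which 5 fell by 2-fold or more in myofibroblasts and 2 in matrix fibroblasts, against 3.24% and 2.54% of all genes, and none rose. These counts include Mia and Sox8, which the cartilage lists hold too, as they do Matn4 and Chadl among the 13 tested. Tnmd, 1 of the 2 that fell in matrix fibroblasts, passed the filter through N-MF alone, so its fall there is tied to the filter. Among the other 12 tested, 5 fell in myofibroblasts and 1 in matrix fibroblasts.

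Outside the 10 genes, those nearest to Chad and Cytl1 in their levels over the 12 libraries were mostly genes of heart muscle. Nearness was the root mean square difference of log2(FPKM + 1) after centring each gene, over 9525 genes with a group mean of at least 5 FPKM. The 10 genes and unnamed gene models were left out of these 9525, so the 10 were not compared with each other. For Chad these were Nppa (0.230), Myl4 (0.419), Tnni3 (0.434), Col2a1 (0.454) and Sln (0.523), against a range of 6.42 for Chad itself. For Cytl1 they were Nppa (0.453), Myl7 (0.631), Myl4 (0.671), Sln (0.702) and Nr4a2 (0.751). Nppa, which encodes an atrial hormone, averaged 7.57, 94.5, 0.587 and 3.67 FPKM in M-MyoF, N-MyoF, M-MF and N-MF. Among those 9525 genes the nearest was Col9a3 for Ucma (0.291), Mia for Otor (0.282), Fmod for Cnmd (0.490), Meltf for Acan (0.137), Arc for Comp (0.235) and Tmem18 for Sox9 (0.0407). Matn1 and Matn3, whose levels span little, were nearest to Dcaf6 (0.0802) and Fbxl18 (0.0940).

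Markers of other cells moved with these genes, and their part in the results was not tested. All 8 atrial muscle markers fell by 2-fold or more in M-MyoF against N-MyoF, and 5 of 8 did in M-MF against N-MF, where 3.24% and 2.54% of all genes fell. Their summed FPKM was 151.7 to 157.2 in M-MyoF, 1098 to 1142 in N-MyoF, 11.1 to 13.5 in M-MF and 47.2 to 49.5 in N-MF, with none of the 8 at 0 as a group mean. The ratio of these sums was 0.138 in myofibroblasts, against 0.0585 for the 9 cartilage genes other than Sox9 and 0.142 for the cartilage collagens. With Sox9, which makes up 42.2 of the 79.7 FPKM in M-MyoF, the ratio for the 10 genes was 0.115. Of 6 Schwann cell markers 5 were tested, and all 5 fell by 2-fold or more in myofibroblasts (3.24% of all genes), with sums of 16.0 to 17.1 FPKM in M-MyoF and 56.0 to 60.2 FPKM in N-MyoF. In matrix fibroblasts that sum was 9.43 to 9.79 FPKM in M-MF and 4.51 to 5.08 FPKM in N-MF. Sox10, which defines these cells, did not enter the fit and was also highest in N-MyoF. It averaged 0.01, 0.737, 0.0133 and 0.0167 FPKM in M-MyoF, N-MyoF, M-MF and N-MF. Of the 8 tendon and perichondrium markers, which include Fmod, 2 of 7 tested fell by 2-fold or more in myofibroblasts and 3 in matrix fibroblasts, against 3.24% and 2.54% of all genes. Tnmd and Kera, 2 of the 3 in matrix fibroblasts, passed the filter through N-MF alone, so their fall there is tied to the filter. Among the other 5 tested, 2 fell in myofibroblasts and 1 in matrix fibroblasts. Egr1, which is not specific to tendon, makes up nearly all of the sum of the 8 markers, which was 0.424 times as high in M-MyoF as in N-MyoF.

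Markers of airway, fibroblasts, bone, neutrophils and mesothelium were read in the same way. Airway epithelium markers summed to 12470 to 13090 FPKM in M-MyoF and 15620 to 16110 FPKM in N-MyoF, against 1908 to 1937 FPKM in M-MF and 1740 to 1787 FPKM in N-MF, and 3 of 9 tested fell by 2-fold or more in myofibroblasts, against 3.24% of all genes. Scgb1a1 made up 12280 of the 12830 FPKM in M-MyoF, so the sum says little of the others. At an adjusted p under 0.05 alone 7 of the 9 fell in myofibroblasts, against 31.6% of all genes, and Krt15, Sec14l3 and Bpifa1 had M-MyoF means 0.171, 0.378 and 0.402 times those of N-MyoF, the group where all 3 were highest. Krt15 passed the filter through N-MyoF alone, so its fall is tied to the filter. Among the other 8 tested, 2 fell by 2-fold or more and 6 at an adjusted p under 0.05 alone. Airway smooth muscle markers summed to 1.49 times as much in M-MyoF as in N-MyoF and 3.01 times as much in M-MF as in N-MF. Of these 8, 1 rose by 2-fold or more in myofibroblasts and 4 in matrix fibroblasts, against 11.4% and 9.32% of all genes. At an adjusted p under 0.05 alone, 5 rose and 2 fell in myofibroblasts, where 49.1% of all genes rose and 31.6% fell. Pcp4, which fell, passed the filter through N-MyoF alone, so its fall is tied to the filter. The 7 defining fibroblast genes, such as Col1a1 and Dcn, summed to 2065 to 2088 FPKM in M-MyoF and 3584 to 3640 FPKM in N-MyoF, against 15270 to 15400 FPKM in M-MF and 21040 to 21270 FPKM in N-MF. Acta2, the actin that marks myofibroblasts and smooth muscle, averaged 948.5 and 628.0 FPKM in M-MyoF and N-MyoF, against 79.7 and 24.0 FPKM in M-MF and N-MF. Acta2 is 1 of 8 markers of the fibroblast subgroups, which also include Inmt, Hhip and Aspn. At an adjusted p under 0.05 alone, Acta2 rose and the other 7 fell in myofibroblasts, where 49.1% of all genes rose and 31.6% fell. In matrix fibroblasts 2 of the 8 rose and 5 fell, where 46.3% of all genes rose and 31.8% fell. Among the bone markers Bglap, Ibsp and Sp7 were under 0.3 FPKM in every group mean, while Alpl rose by 2.12 and 1.96 on the log2 scale and Dmp1 by 2.91 and 1.97 in myofibroblasts and matrix fibroblasts. Neutrophil markers summed to 94.5 times as much in M-MyoF as in N-MyoF and 7.35 times as much in M-MF as in N-MF, and mesothelial markers to 2.54 and 35.5 times as much.

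**Figure D4:**
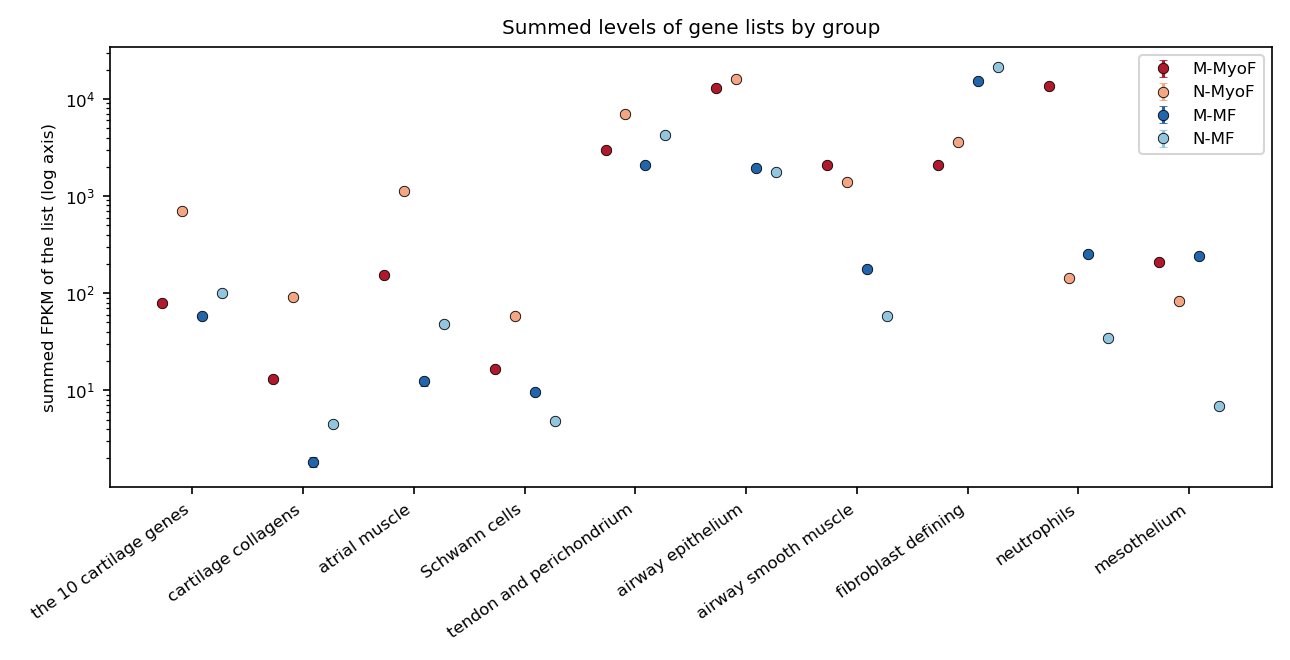
Summed FPKM of gene lists by group on a log axis, with bars from the lowest to the highest library and points at the mean (n = 3). The 10 cartilage genes, the cartilage collagens and the atrial muscle markers stand highest in N-MyoF, with sums 0.115 (0.0585 without Sox9), 0.142 and 0.138 times as high in M-MyoF as in N-MyoF, while neutrophil markers stand highest in M-MyoF.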

How the data were processed

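RNA from 12 libraries of mouse lung fibroblasts was measured by RNA-seq, and the authors deposited 1 table of FPKM per gene and library with 2 decimals. Reads were placed on GRCm38, per the submitters' processing notes, and the sources used here name neither the aligner nor the counting tool. No counts were used, so no count test was run. From the deposited FPKM, log2(FPKM + 1) was computed and fitted with limma 3.58.1 in R 4.3.3 (4 group means, 12 libraries, mean-variance trend) over the 13300 genes that reached 1 FPKM in 3 or more libraries. P-values were adjusted by Benjamini-Hochberg over those genes, and the fit was tested on simulated data. The 10 genes and all lists were chosen with earlier results of these data known. Of each list the 3 tested genes with the highest mean and the cartilage genes past 2-fold were named, with the genes of nearest pattern, and Acsf2, Sox6, Matn2, Vcan and some markers were named after their values were seen. Replicate numbers come from the library labels. Over 1830 genes of at least 50 FPKM, deviations of the 18 same-numbered pairs from their group means correlated at 0.482 to 0.796, and the 36 other pairs at -0.683 to 0.380. The numbers therefore pair the libraries, but the printed SE and adjusted p come from the fit without a block, and the blocked fit is an alternative. Alternatives were other pseudocounts, filters and scalings, the replicate block, the compared groups alone and each library left out, and, chosen after seeing the data, leaving out the 4 libraries numbered 3.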

Additional observations from a re-analysis of the deposited data

Results flagged for a closer look

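The difference between the M to N effect in myofibroblasts and that in matrix fibroblasts (MyoF minus MF, log2) passed the limma test at an adjusted p under 0.05 for the genes below, as it did for 64.4% of all genes tested. No cause was tested. Many of these genes were named because they passed 2-fold in 1 subgroup. Col9a1, Col9a2, Col11a1, Col11a2, Col10a1, Hapln1, Snorc, Clec3a and Susd5 also passed the filter through N-MyoF alone, so their differences are tied to the filter and are given as values only. The same holds for Cilp2, which passed the filter through N-MyoF and part of M-MyoF.

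Among collagens the difference was -1.82 for Col2a1, -1.81 for Col9a1, -1.96 for Col9a2, -2.11 for Col9a3, -1.75 for Col11a1, -1.54 for Col11a2, -1.90 for Col10a1 and -0.758 for Col27a1. Among other matrix genes it was -2.56 for Snorc, -2.49 for Mia, -2.49 for Prg4, -2.0 for Clec3a, -1.90 for Susd5, -1.77 for Hapln1, -1.59 for Fmod, -1.37 for Cilp2, -0.129 for Cilp and 0.33 for Mgp. These genes were at a low level in matrix fibroblasts in many cases, where the log2(FPKM + 1) scale compresses a change, and Col2a1 had a difference of 0.15 with a pseudocount of 0.1. Prg4, Fmod, Cilp and Mgp had more than 10 FPKM in both matrix fibroblast groups.

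Among regulators the difference was -0.70 for Sox5, -0.306 for Wwp2, -0.29 for Trps1, 0.637 for Runx2 and 0.653 for Fgfr3, and for Sox6, named after its values were seen, it was -1.32. Among genes of chondroitin sulfate synthesis it was 1.14 for Chpf, 0.11 for Ugdh and -0.226 for Csgalnact1. The calls of Ugdh and Cilp were lost under 12 and 11 of 21 alternatives. Sox8 had a difference of -0.05, which did not pass. Among relatives of the 10 genes the difference was -2.08 for Thbs1 and -0.583 for Matn2.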

How the results depend on the processing

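Of 238 alternative values for the counts over the cartilage lists and the median ratios of the 10 genes, 218 stayed within 1.5 times the count or 1 SD of the ratio and 20 moved. With a pseudocount of 5, 6 genes of the lists fell and 0 rose by 2-fold in myofibroblasts, 1 fell and 1 rose in matrix fibroblasts, the difference of effects was lower for 7 and higher for 0, 7 were higher in N-MyoF than in N-MF and 1 was higher in M-MyoF than in M-MF. With a pseudocount of 0.1, 3 rose in myofibroblasts, 15 fell and 4 rose in matrix fibroblasts, and 17 were higher in M-MyoF than in M-MF. With a filter of 5 FPKM, which tests fewer genes, 0 rose in myofibroblasts, 1 rose in matrix fibroblasts and 12 were higher in N-MyoF than in N-MF. Median-ratio scaling and quantile normalization each left 1 gene higher in M-MyoF than in M-MF. Leaving out 1 library gave 2 to 4 genes that fell in matrix fibroblasts, 16 in every case that fell in myofibroblasts, and 18 to 19 higher in N-MyoF than in N-MF. Without the 4 libraries numbered 3, 2 fell in matrix fibroblasts. The causes were not tested. The replicate block changed no count by over 1.5 times, with 16 that fell and 1 that rose in myofibroblasts and 4 and 2 in matrix fibroblasts, and Col9a1 in matrix fibroblasts (-0.15) was the one named gene that lost its call under the block.

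The median ratio of the 10 genes lay between 0.0546 and 0.0629 in myofibroblasts and between 0.234 and 0.327 in matrix fibroblasts with 1 library left out, and none of the 14 single-gene ratios followed under scalings and left-out libraries crossed 1. Among named genes the call of Trps1 in myofibroblasts was lost under all 3 rescalings (0.014 to 0.073), and those of Sox5, Col9a1, Col11a2 and Mia in matrix fibroblasts were lost under at least 1 alternative. The difference of effects changed sign for Col2a1 with a pseudocount of 0.1 (0.15), for Mgp under quantile normalization (-0.23) and for Cilp with a pseudocount of 5 (0.14). Its call was lost for Ugdh under 12 of 21 alternatives, for Cilp under 11 of 21, 10 of them a library left out, and for Runx2 with a pseudocount of 0.1 (0.35). FPKM near 0, as for Ucma, Acan, Matn1, Matn3 and Otor in matrix fibroblasts, cannot be told from background because depth is unknown.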
